A study of Drosophila melanogaster with 16 samples.

Results

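Thor (FBgn0261560) encodes the only 4E-BP of the fly, the protein that binds the cap-binding translation initiation factor eIF4E. Thor was chosen by its mRNA counts in these samples, being higher in both overexpression genotypes and lower when ATF4 RNAi was added, so its levels are given as a description and carry no test. It is 1 gene of the 17698 counted in 16 RNA sequencing libraries. The samples were whole central nervous systems (CNSs) of wandering Drosophila larvae late in their last instar grown at 25°C, 20 CNSs per replicate, in 4 genotypes of 4 replicates each. All of them carry the nsyb-Gal4 driver, which acts in neurons, whereas the RNA came from all cells of the CNS.

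The TFAM overexpression, ATF4 RNAi larvae were nsybGal4>UAS-TFAM3M, UAS-ATF4 RNAi. The larvae labelled ATF4 overexpression were nsybGal4>UAS-ATF4-HA, with an HA tag on the expressed protein. TFAM overexpression larvae were nsybGal4>UAS-TFAM3M, and control larvae were nsybGal4/+, with the driver and no UAS transgene. TFAM is the mitochondrial transcription factor that packages mitochondrial DNA, and its overexpression was the study's way to stress mitochondria. The RNAi genotype therefore differs from the TFAM overexpression genotype by 1 further UAS transgene, and no larvae with ATF4 RNAi alone were analysed here.

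In background, 4E-BP competes with the scaffold eIF4G for the same surface of eIF4E and so restrains cap-dependent translation. The kinase TOR phosphorylates 4E-BP and makes it release eIF4E, so 4E-BP holds translation back most when nutrients or insulin signals are low. In Drosophila the Thor gene is also controlled at the level of transcription, with FOXO, the factor held back by insulin signalling, and ATF4, the factor translated when eIF2α is phosphorylated in the integrated stress response, both known to raise it. The fly ATF4 is encoded by crc. The counts measure Thor mRNA only, and neither 4E-BP protein nor its phosphorylation was measured.

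Thor lies on chromosome 2L of the BDGP release 6 assembly, the assembly known as dm6, from 3478434 to 3479612 on the forward strand. The Ensembl release 115 annotation gives it 2 exons of 327 and 428 bases, 755 in all, around an intron of 424 bases. Its 2 transcripts, Thor-RA and Thor-RB, differ only in where they start, at 3478434 and 3478522, and both encode the same 117 codons. The extra bases of Thor-RA are 5′ UTR, and the counts do not separate the transcripts. No annotated gene overlaps Thor, in span or in exons, so that its reads were not shared with a neighbour on either strand.

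Levels are given in CPM, the counts of a gene over the TMM-scaled total of its library. The libraries held between 18215062 and 24778270 counted reads, and Thor had between 116 and 1170 of them. All 8 neuronal markers (elav, nSyb, Syt1, brp, Rdl, VGlut, ChAT and Gad1) were detected, with a summed level of 1742 to 3330 CPM. The transgenes were checked first on their own genes. TFAM had 399.0, 487.2, 620.1 and 668.9 CPM in the TFAM overexpression, ATF4 RNAi libraries and 395.7, 681.8, 553.3 and 520.6 CPM in the TFAM overexpression libraries, against 70.24, 84.77, 139.2 and 93.75 CPM in controls. The 2 libraries whose counts fell most steeply with exon length were control replicate 3 and TFAM overexpression replicate 2, and the values without them are in the closing part.

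The gene for ATF4 itself did not follow the label of the overexpression genotype. For crc, libraries labelled ATF4 overexpression had 176.9, 186.9, 188.6 and 183.9 CPM, against 196.0, 187.8, 227.2 and 202.2 CPM in controls, a log2 fold change of -0.15 (SE 0.10, edgeR quasi-likelihood test, adjusted p = 0.530). These libraries are therefore called by their label, and each direction drawn from them rests on that label. In the TFAM overexpression, ATF4 RNAi libraries crc had 148.2, 156.5, 165.1 and 155.8 CPM, against 215.7, 241.8, 169.1 and 183.5 CPM in TFAM overexpression libraries. Every RNAi library was below every TFAM overexpression library for crc, as 2.43% of all tested genes were, but the log2 fold change of -0.38 (SE 0.11) did not pass the edgeR test (adjusted p = 0.339), and passed it only with the length slope of each library as a covariate (-0.41, adjusted p = 0.0378). TFAM overexpression left crc mRNA at -0.02 (SE 0.13, adjusted p = 0.960) relative to control on the log2 scale. Part of the exons of crc is shared with those of CG46314 on the same strand, so that the counts of crc are less certain than those of Thor.

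Thor was counted in every library. The TFAM overexpression, ATF4 RNAi libraries had 174, 116, 147 and 237 Thor counts, which are 7.30, 4.80, 6.56 and 10.8 CPM. The libraries labelled ATF4 overexpression held 952, 1170, 1115 and 1039 Thor counts, or 40.4, 48.4, 47.5 and 45.2 CPM. Thus Thor was low in all libraries with the RNAi transgene and high in all libraries labelled ATF4 overexpression, without overlap.

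TFAM overexpression libraries held 1041, 672, 817 and 682 Thor counts, or 44.8, 33.7, 32.3 and 28.5 CPM. Control libraries held 440, 141, 244 and 261 counts, or 18.3, 6.42, 14.4 and 11.8 CPM. The lowest TFAM overexpression library was above the highest control library, and control replicate 2 was at the level of the RNAi libraries.

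**Figure D1:**
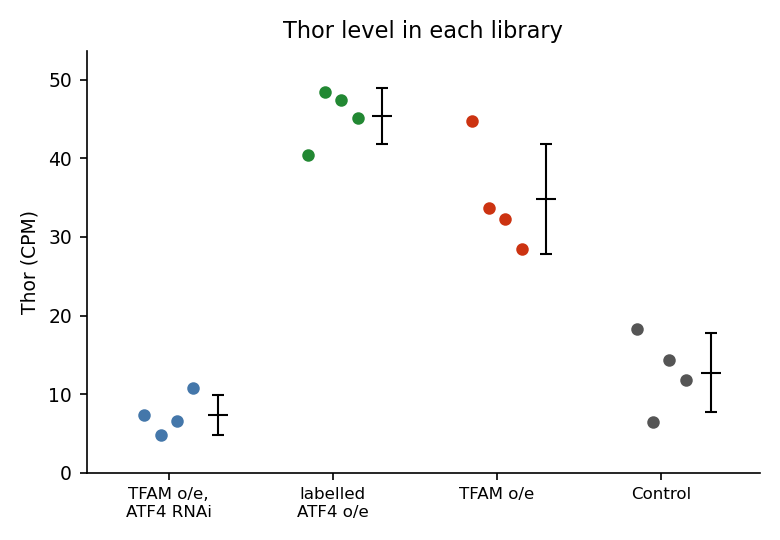
Thor mRNA in CPM (counts over the TMM-scaled library total) in each of the 16 libraries, by genotype. Points are libraries in replicate order and bars are the mean and SD of 4. The libraries labelled ATF4 overexpression lie between 40.4 and 48.4 CPM and those of TFAM overexpression between 28.5 and 44.8 CPM, above the control libraries at 6.42 to 18.3 CPM, while the TFAM overexpression, ATF4 RNAi libraries lie between 4.80 and 10.8 CPM.

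The mean Thor level was 45.4 ± 3.57 CPM in libraries labelled ATF4 overexpression, 34.8 ± 6.998 CPM in TFAM overexpression, 7.36 ± 2.51 CPM in TFAM overexpression, ATF4 RNAi, and 12.8 ± 4.99 CPM in control (SD, n = 4 each). Set over the control mean, these are 3.56-fold for the ATF4 overexpression label, 2.73-fold for TFAM overexpression and 0.577-fold for the RNAi genotype. In the order of the means, neighbouring genotypes overlapped between the libraries labelled ATF4 overexpression and TFAM overexpression, and between control and the RNAi genotype. Only the step from TFAM overexpression down to control separated neighbours completely. Because whole CNSs were sequenced, fewer cells with Thor mRNA and less Thor mRNA per cell cannot be told apart.

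Replicates of Thor were unequally spread. The coefficient of variation of its CPM was 34.1% in the RNAi genotype, 7.86% in libraries labelled ATF4 overexpression, 20.1% in TFAM overexpression and 39.2% in control. At the mean counts, counting error alone would give 7.70% in the RNAi genotype, 3.06% in libraries labelled ATF4 overexpression, 3.53% in TFAM overexpression and 6.07% in control. The spread of Thor was thus wider than counting error in each genotype, and wider in the control and RNAi genotypes than in the genotypes with high Thor.

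That spread was also set against 2844 genes of a mean level like that of Thor. The SD of Thor in log2 CPM was 0.48 in the RNAi genotype, where the median of these genes was 0.15 and 75 of them had a larger SD. In control it was 0.64 against a median of 0.29, and 193 of them had a larger SD. In libraries labelled ATF4 overexpression Thor had an SD of 0.12, at the median of 0.12, with 1509 genes more variable. TFAM overexpression libraries gave Thor an SD of 0.27 against a median of 0.20, with 837 genes more variable. The highest control library had 2.86 times the Thor CPM of the lowest, and the highest RNAi library had 2.25 times that of the lowest.

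Against control, the fitted log2 fold change of Thor was 1.43 (SE 0.30) in TFAM overexpression, a 2.70-fold higher level. All 16 pairings of a TFAM overexpression library with a control library had more Thor under TFAM overexpression, and 1.92% of the 9355 tested genes were separated in that direction. Among those genes 41 had a larger fold change upwards. The lowest TFAM overexpression library had 1.56 times the level of the highest control library.

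In the libraries labelled ATF4 overexpression the fold change against control was larger, at 1.82 (SE 0.27) on the log2 scale, or 3.54-fold. All 16 pairings were again higher, as for 3.45% of 9410 genes, and 26 genes had a larger fold change upwards. The lowest library of that label had 2.20 times the Thor level of the highest control. Both fold changes share the 4 control libraries, so that they are not independent of each other.

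Adding ATF4 RNAi to TFAM overexpression gave a log2 fold change of -2.25 (SE 0.23) for Thor against TFAM overexpression alone, a 4.77-fold lower level. None of the 16 pairings was higher, 2.43% of 9436 genes were separated in that direction, and 16 genes had a larger fold change downwards. The lowest TFAM overexpression library still had 2.65 times the level of the highest RNAi library. These separations chose the gene, so that nothing is read from their number.

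Beside the comparisons that chose Thor stand 2 others on the same libraries. Against control, the TFAM overexpression, ATF4 RNAi libraries had a log2 fold change of -0.83 (SE 0.34) for Thor, a 1.78-fold lower level, with 145 of 9421 genes lower still. Their ranges overlapped, with 3 of 16 pairings higher in the RNAi genotype, all of them against control replicate 2. Without that control library the log2 fold change was -1.05, and without control replicate 1 it was -0.59.

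The libraries labelled ATF4 overexpression had a log2 fold change of 0.39 (SE 0.13) for Thor against TFAM overexpression, or 1.31-fold. In 15 of 16 pairings Thor was higher under the ATF4 overexpression label, the exception being its replicate 1 at 40.4 CPM against TFAM overexpression replicate 1 at 44.8 CPM. Among 9423 genes 409 had a larger fold change upwards. The difference between the 2 genotypes with high Thor was smaller than their log2 fold changes against control, 1.43 and 1.82.

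The level of Thor also moved among the other genes of the CNS. Ranked by CPM per kilobase of exon among 8609 genes with a mean of at least 1 CPM, Thor stood between 5077 and 6680 in the RNAi libraries and between 1174 and 1377 in libraries labelled ATF4 overexpression. In TFAM overexpression libraries its rank was between 1245 and 2159, against 3418 to 6181 in controls. Every library of both genotypes with high Thor ranked it above every control and every RNAi library.

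The binding partner of Thor was then measured, since 4E-BP acts by occupying eIF4E. eIF4E1, the main eIF4E of the fly, had 178.7 ± 8.59 CPM per kilobase in the RNAi genotype, 176.6 ± 3.91 in libraries labelled ATF4 overexpression, 183.3 ± 9.41 in TFAM overexpression and 177.9 ± 4.57 in control (SD, n = 4 each). Over all libraries it stayed between 166.0 and 192.5 CPM per kilobase. Its log2 fold change was between -0.04 and 0.03 in the 5 comparisons, with SEs from 0.07 to 0.10, and none passed the edgeR test (lowest adjusted p = 0.928).

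eIF4E1 made up 98.7% to 99.6% of the summed per-length level of the eIF4E genes (eIF4E1 and eIF4E3 to eIF4E7), so the paralogs add little here. The ratio of Thor to eIF4E1 per length was 0.0553 ± 0.0219 in TFAM overexpression, ATF4 RNAi, 0.340 ± 0.0204 in libraries labelled ATF4 overexpression, 0.251 ± 0.0424 in TFAM overexpression and 0.0952 ± 0.0372 in control (SD, n = 4 each). The ratio stayed under 1 in all 16 libraries, its highest being 0.357 in replicate 2 of the ATF4 overexpression label. It is a ratio of mRNAs and says nothing of the ratio of the proteins.

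**Figure D2:**
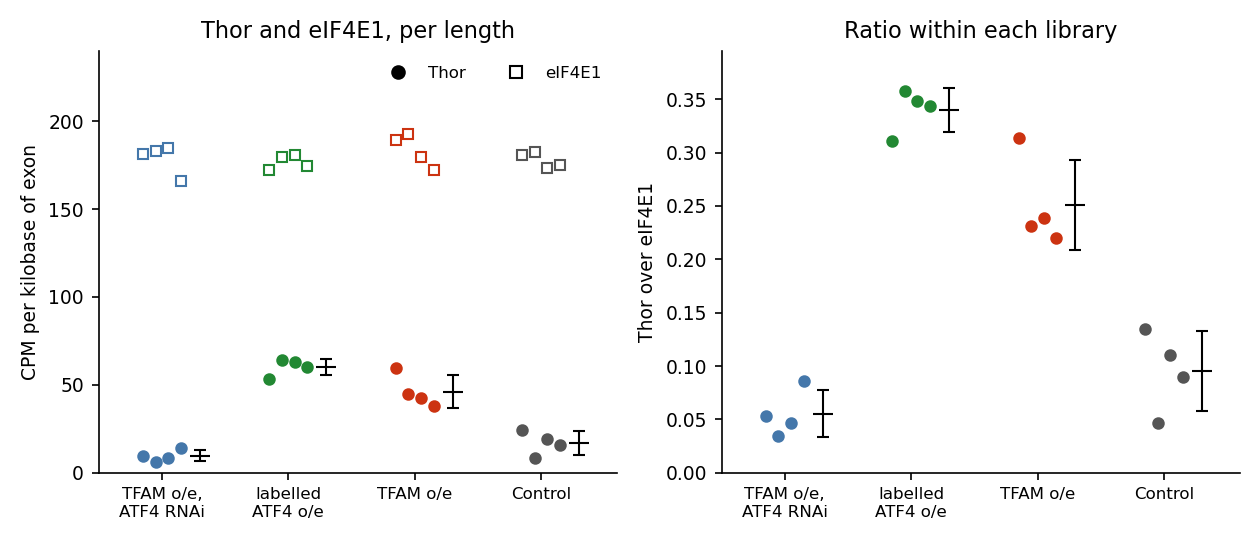
Thor and its partner eIF4E1 in each library, in CPM per kilobase of exon (left, filled circles for Thor and open squares for eIF4E1), and the ratio of Thor to eIF4E1 within each library (right). Bars are the mean and SD of 4 libraries. eIF4E1 stays between 166.0 and 192.5 in all genotypes, whereas the mean ratio is 0.340 under the ATF4 overexpression label, 0.251 in TFAM overexpression, 0.0553 with ATF4 RNAi and 0.0952 in control.

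The other genes through which Thor acts or is acted on were taken from 9 lists with 93 distinct genes, of which 82 had enough counts to be tested. In edgeR, 0 of 82 were called in TFAM overexpression against control, where 0.299% of all tested genes were, and 5 of 82 had an unadjusted p under 0.05, as did 4.34% of all genes. Against control, 0 of 82 were called in libraries labelled ATF4 overexpression (0.765% of all genes), with 6 at an unadjusted p under 0.05 (8.91% of all genes), and 0 of 82 in the RNAi genotype (0.563% of all genes), with 4 at an unadjusted p under 0.05 (4.7% of all genes). DESeq2 called 3, 2 and 2 of the 82 in these comparisons, all named below. Among all tested genes it called 120 of 9355, 210 of 9410 and 128 of 9421. The RNAi genotype against TFAM overexpression had 2 of 82 called, both lower (0.551% of all genes were called and 0.318% called lower), and 7 at an unadjusted p under 0.05 (5.81% of all genes). The ATF4 overexpression label against TFAM overexpression also had 2 of 82 called, both lower (1.41% and 0.987% of all genes), and 11 at an unadjusted p under 0.05 (7.74% of all genes). The called genes were Ldh and Tret1-1 in each of these comparisons, to which DESeq2 added AsnS and Ilp7 in the one and Xrp1 in the other. Among all tested genes DESeq2 called 156 of 9436 in the one and 250 of 9423 in the other.

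The sizes are given as a description, since Thor was chosen by these same differences. Ldh alone had a larger absolute log2 fold change than Thor in TFAM overexpression against control, and no pathway gene did in libraries labelled ATF4 overexpression against control or in the RNAi genotype against TFAM overexpression. In the ATF4 overexpression label against TFAM overexpression, where Thor was at 0.39, 7 of 82 had a larger one.

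**Figure D3:**
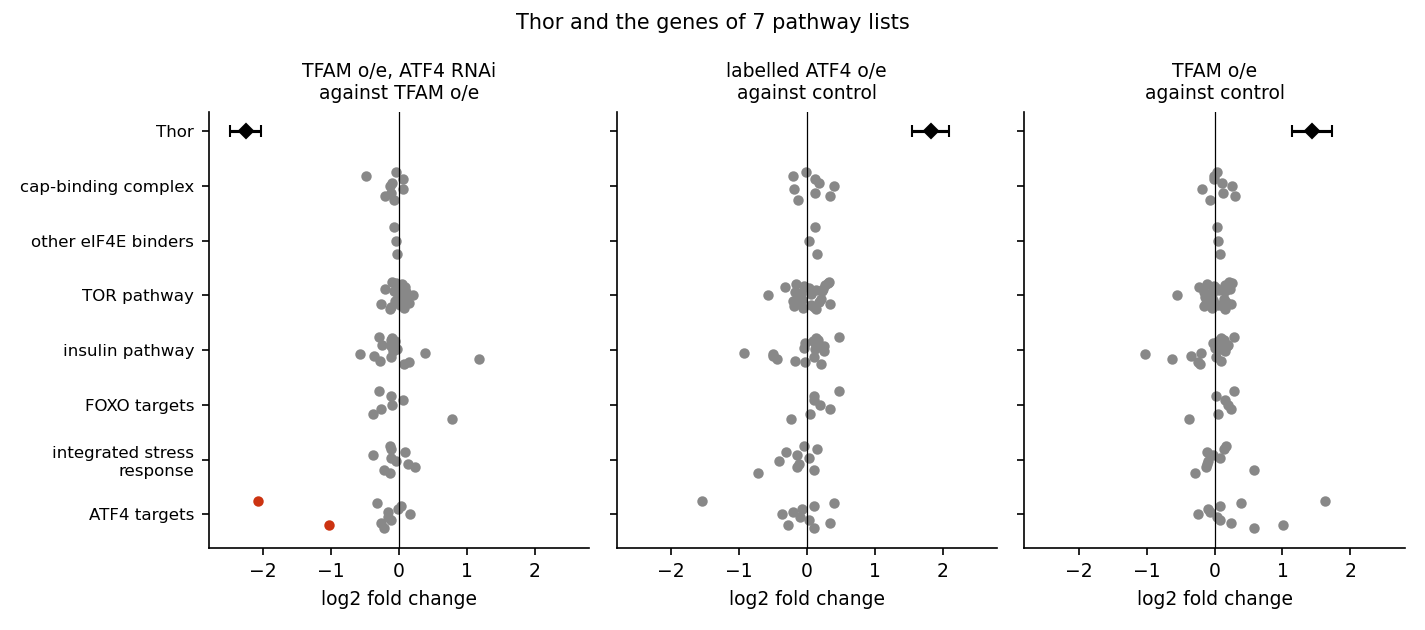
Fitted log2 fold changes of Thor (diamond, bar 1 SE) and of the tested genes of 7 pathway lists (circles, red where called, with an adjusted p under 0.05 and at least a 1.2-fold difference) in the 3 comparisons that chose Thor. Thor is at -2.25, 1.82 and 1.43, and the only called pathway genes are Ldh at -2.07 and Tret1-1 at -1.03 in the left panel.

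Of the cap-binding complex, 9 of 14 listed genes were tested, among them eIF4G1, eIF4A and pAbp. The edgeR test called none in any comparison, none had an unadjusted p under 0.05, and DESeq2 called none either. Their median log2 fold change was 0.03 in TFAM overexpression against control, 0.12 under the ATF4 overexpression label against control and -0.11 in the RNAi genotype against TFAM overexpression, where the medians over all tested genes were -0.01, -0.02 and 0.00. Single genes ranged from -0.51 to 0.41 over the 5 comparisons.

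Further eIF4E-binding proteins, 4E-T, mxt and Gyf, had log2 fold changes between -0.08 and 0.15 in all 5 comparisons. None was called by edgeR or DESeq2 and none had an unadjusted p under 0.05. The fourth on the list, cup, was listed at 0 counts in all libraries, which is not read as absence of the mRNA, since its exons overlap those of other genes. The values of Thor, also an eIF4E-binding protein but chosen by its differences, ran from -2.25 to 1.82 in the same comparisons.

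All 27 listed genes of the TOR pathway, which sets the phosphorylation of 4E-BP, were tested and none was called by edgeR or DESeq2. An unadjusted p under 0.05 was found for 2 of them in libraries labelled ATF4 overexpression against control (8.91% of all genes). None had one in the other comparisons. The list's median log2 fold change stayed between -0.01 and 0.03. mTor, the kinase itself, had 140.4 ± 16.1 CPM in the RNAi genotype, 162.8 ± 15.3 CPM under the ATF4 overexpression label, 150.1 ± 29.0 CPM in TFAM overexpression and 129.1 ± 47.3 CPM in control (SD, n = 4 each). Its lowest value, 66.7 CPM, was in control replicate 3, and its largest log2 fold change was 0.33 (SE 0.26, edgeR adjusted p = 0.546), under the ATF4 overexpression label against control.

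Lk6, the fly MNK-type kinase that phosphorylates eIF4E, had 344.3 CPM in that control library and 506.1 to 703.1 CPM in the other 15. Its log2 fold changes were between -0.12 and 0.16, none with an edgeR adjusted p below 0.672. The activity of these kinases was not measured.

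Insulin signalling acts on Thor through both TOR and FOXO, and 18 of its 21 listed genes were tested. foxo itself had 20.4 to 25.5 CPM over all 16 libraries, with log2 fold changes between -0.10 and 0.00 (lowest edgeR adjusted p = 0.789). InR, the insulin receptor, had its lowest value, 58.8 CPM, again in control replicate 3, and log2 fold changes between -0.29 and 0.47 with no adjusted p below 0.530. None of the 18 genes was called in any comparison by edgeR with all 8 libraries and no covariate. An unadjusted p under 0.05 was found for 1, 1, 2, 2 and 5 in TFAM overexpression against control, the ATF4 overexpression label against control, the RNAi genotype against TFAM overexpression, the RNAi genotype against control, and the ATF4 overexpression label against TFAM overexpression. Over all tested genes the shares were 4.34%, 8.91%, 5.81%, 4.7% and 7.74% in the same order.

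The insulin-like peptides of the brain's insulin-producing cells varied more. Ilp3 had 16.4, 29.2, 24.9 and 19.7 CPM in TFAM overexpression, ATF4 RNAi libraries, against 46.5, 54.8, 116.9 and 51.6 CPM in controls. The groups did not overlap, as was so for 1.51% of tested genes in that direction, and the log2 fold change was -1.61 (SE 0.32, edgeR adjusted p = 0.0991). It passed the threshold without control replicate 3, at -1.19 (adjusted p = 0.0184), in DESeq2 at -1.59 (adjusted p = 0.000134), with all 16 libraries in 1 fit at -1.59 (adjusted p = 0.0140) and with the length slope at -1.40 (adjusted p = 0.00540). In TFAM overexpression Ilp3 had 25.6, 54.3, 30.5 and 23.6 CPM, a log2 fold change of -1.03 (SE 0.36, adjusted p = 0.771) against control. That difference in Ilp3 was called with the length slope (-0.72, adjusted p = 0.0151) and without control replicate 3 and TFAM overexpression replicate 2 (-0.93, adjusted p = 0.0135). Ilp3 was also called by edgeR under the ATF4 overexpression label against TFAM overexpression in some alternatives. These were the length slope (0.76, edgeR adjusted p = 0.00137) and leaving out TFAM overexpression replicate 2 (0.85, edgeR adjusted p = 0.000724).

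Ilp2 had a log2 fold change of -0.93 (SE 0.28, edgeR adjusted p = 0.314) under the ATF4 overexpression label against control, with 82.2 to 120.8 CPM under that label against 119.1 to 322.5 CPM in control. Ilp5 had -0.71 (SE 0.28, adjusted p = 0.918) in the RNAi genotype against control, with 33.3 to 68.6 CPM in the RNAi genotype against 54.4 to 121.3 CPM in control. Ilp7, a peptide of neurons in the nerve cord, was at 1.18 in the RNAi genotype against TFAM overexpression (edgeR adjusted p = 0.284), and DESeq2 called it at 1.19 (adjusted p = 0.0265). Without TFAM overexpression replicate 2 edgeR called Ilp7 too. Ilp6, the peptide made largely by fat body and glia, stayed within log2 fold changes of -0.12 and 0.11 (lowest adjusted p = 0.698). In these comparisons with control the ranges of Ilp2 and of Ilp5 overlapped. Against TFAM overexpression, at 131.7 to 278.9 CPM, Ilp2 was lower in every library of the ATF4 overexpression label, as were 3.82% of tested genes, with a log2 fold change of -0.72 (SE 0.23, edgeR adjusted p = 0.311). With the length slope as a covariate Ilp2 was called under that label both against TFAM overexpression (-0.51, adjusted p = 0.00170) and against control (-0.46, adjusted p = 0.0218).

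FOXO has other known target genes, and 7 of 7 listed (InR, Ilp6, Lip4, bmm, Sesn, daw and l(2)efl) were tested. None was called by edgeR or DESeq2 in any comparison, and daw alone had an unadjusted p under 0.05. In the RNAi genotype it was at -0.38 against TFAM overexpression (SE 0.14, edgeR adjusted p = 0.721) and at -0.33 against control (SE 0.12, edgeR adjusted p = 0.748). Of all genes 5.81% and 4.7% had such an unadjusted p there. The median of the 7 targets was 0.16 in TFAM overexpression against control. It was 0.11 under the ATF4 overexpression label against control and -0.12 in the RNAi genotype against TFAM overexpression. The values of Thor in the same comparisons, by which it was chosen, were 1.43, 1.82 and -2.25.

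Of the integrated stress response, which leads to ATF4, all 10 listed genes were tested. With all 8 libraries and no covariate edgeR called none of these genes. They include the eIF2α kinases PEK and Gcn2, with log2 fold changes of 0.17 (SE 0.12) and 0.14 (SE 0.20) in TFAM overexpression against control (edgeR adjusted p = 0.880 for each). The ATF4 overexpression label against TFAM overexpression had 3 of the 10 at an unadjusted p under 0.05 (7.74% of all genes). Each other comparison had 1 (4.34% to 8.91% of all genes). DESeq2 called crc lower in the RNAi genotype against control, at -0.39 (adjusted p = 0.000503), and Xrp1 lower under the ATF4 overexpression label against TFAM overexpression, at -0.47 (adjusted p = 0.0217). With the length slope edgeR called both, crc at -0.39 (adjusted p = 0.00477) and Xrp1 at -0.53 (adjusted p = 0.00123), and it called Xrp1 without TFAM overexpression replicate 2 (-0.57, adjusted p = 0.00906).

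In pairwise fits with all 8 libraries and no covariate, edgeR called only Ldh and Tret1-1 among the pathway genes. Both were listed among genes known in flies or mammals as targets of ATF4. For Tret1-1 the study's link to ATF4 comes from these same data, so its listing is not independent of its call. Ldh, lactate dehydrogenase, had 84.8, 90.4, 98.2 and 121.7 CPM in TFAM overexpression, ATF4 RNAi libraries, against 382.2, 515.1, 306.5 and 443.5 CPM in TFAM overexpression. The log2 fold change was -2.07 (SE 0.17, edgeR adjusted p = 0.000312), close in size to the -2.25 of Thor, and the ranges were far apart. Tret1-1, a trehalose transporter, fell by 1.03 on the log2 scale (SE 0.13, edgeR adjusted p = 0.00549), with 47.5, 50.4, 45.9 and 51.7 CPM in the RNAi genotype against 95.1, 118.2, 75.7 and 108.7 CPM in TFAM overexpression.

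Under the ATF4 overexpression label both went the other way from Thor. Ldh had 37.7, 63.5, 37.1 and 45.0 CPM there, a log2 fold change of -3.16 (SE 0.21, edgeR adjusted p = 4.24e-05) against TFAM overexpression, and Tret1-1 had 37.9, 48.0, 32.9 and 42.7 CPM, at -1.29 (SE 0.15, adjusted p = 0.00190). Thor in that comparison was at 0.39. Ldh was also below every control library, as 3.48% of tested genes were in that direction. Controls had 64.9, 88.6, 120.2 and 256.7 CPM, and the log2 fold change was -1.54 (SE 0.40, adjusted p = 0.202). This difference in Ldh was called by DESeq2, at -1.52 (adjusted p = 0.00827), and by edgeR with all 16 libraries in 1 fit, at -1.53 (adjusted p = 0.0295).

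In TFAM overexpression against control, Ldh had a log2 fold change of 1.62 (SE 0.40, edgeR adjusted p = 0.293) and Tret1-1 of 1.01 (SE 0.20, adjusted p = 0.122). Neither overlapped with control, as was so for 1.92% of tested genes in that direction, and neither was called. Control replicate 4 held the highest control level of each, 256.7 CPM for Ldh and 67.4 CPM for Tret1-1. Without it both were called, Ldh at 2.18 (adjusted p = 0.0205) and Tret1-1 at 1.23 (adjusted p = 0.0380), and both were called with all 16 libraries in 1 edgeR fit (adjusted p = 0.0269 for Ldh and 0.00587 for Tret1-1) and by DESeq2 (adjusted p = 0.00445 for Ldh and 0.000687 for Tret1-1). Tret1-1 was also called with the length slope (adjusted p = 0.0354). Control replicate 4 did not stand out for Thor, at 11.8 CPM.

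AsnS, asparagine synthetase, followed Thor in direction in all 3 comparisons that chose it, with smaller differences. It had 73.5, 72.2, 81.9 and 73.7 CPM in the RNAi genotype, 90.6, 100.1, 88.8 and 98.9 CPM under the ATF4 overexpression label, 92.9, 104.6, 91.0 and 87.5 CPM in TFAM overexpression and 69.8, 65.6, 70.0 and 78.7 CPM in control. Its log2 fold changes were 0.39 (SE 0.10, edgeR adjusted p = 0.312) in TFAM overexpression against control, 0.41 (SE 0.09, adjusted p = 0.113) under the ATF4 overexpression label against control and -0.33 (SE 0.08, adjusted p = 0.207) in the RNAi genotype against TFAM overexpression. DESeq2 called all 3, at adjusted p = 0.00753, 0.000447 and 0.00764, and edgeR with the length slope as a covariate also called all 3, at adjusted p = 0.0253, 0.0188 and 0.0142. All 16 libraries in 1 edgeR fit gave calls against control in TFAM overexpression (adjusted p = 0.0201) and under the ATF4 overexpression label (adjusted p = 0.00953), and that of the label was also called without control replicate 3 (adjusted p = 0.0485).

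Xrp1, a stress-induced transcription factor that is itself known to act on Thor, averaged 264.0 ± 33.2 CPM in the RNAi genotype, 219.9 ± 15.2 CPM under the ATF4 overexpression label, 307.0 ± 47.2 CPM in TFAM overexpression and 204.3 ± 47.6 CPM in control (SD, n = 4 each). Its log2 fold change was 0.58 (SE 0.20, edgeR adjusted p = 0.795) in TFAM overexpression against control and 0.10 (SE 0.18, adjusted p = 0.745) under the ATF4 overexpression label against control. The remaining targets on the list, which include the serine pathway genes CG11899, CG6287 and aay and the folate enzymes Shmt and Nmdmc, had log2 fold changes between -0.36 and 0.35 in the 5 comparisons and no call. In TFAM overexpression against control the median of all 11 targets was 0.08. It was -0.06 under the ATF4 overexpression label against control and -0.17 in the RNAi genotype against TFAM overexpression. Thor was chosen by its differences in these comparisons, so nothing is read from its larger size.

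**Figure D4:**
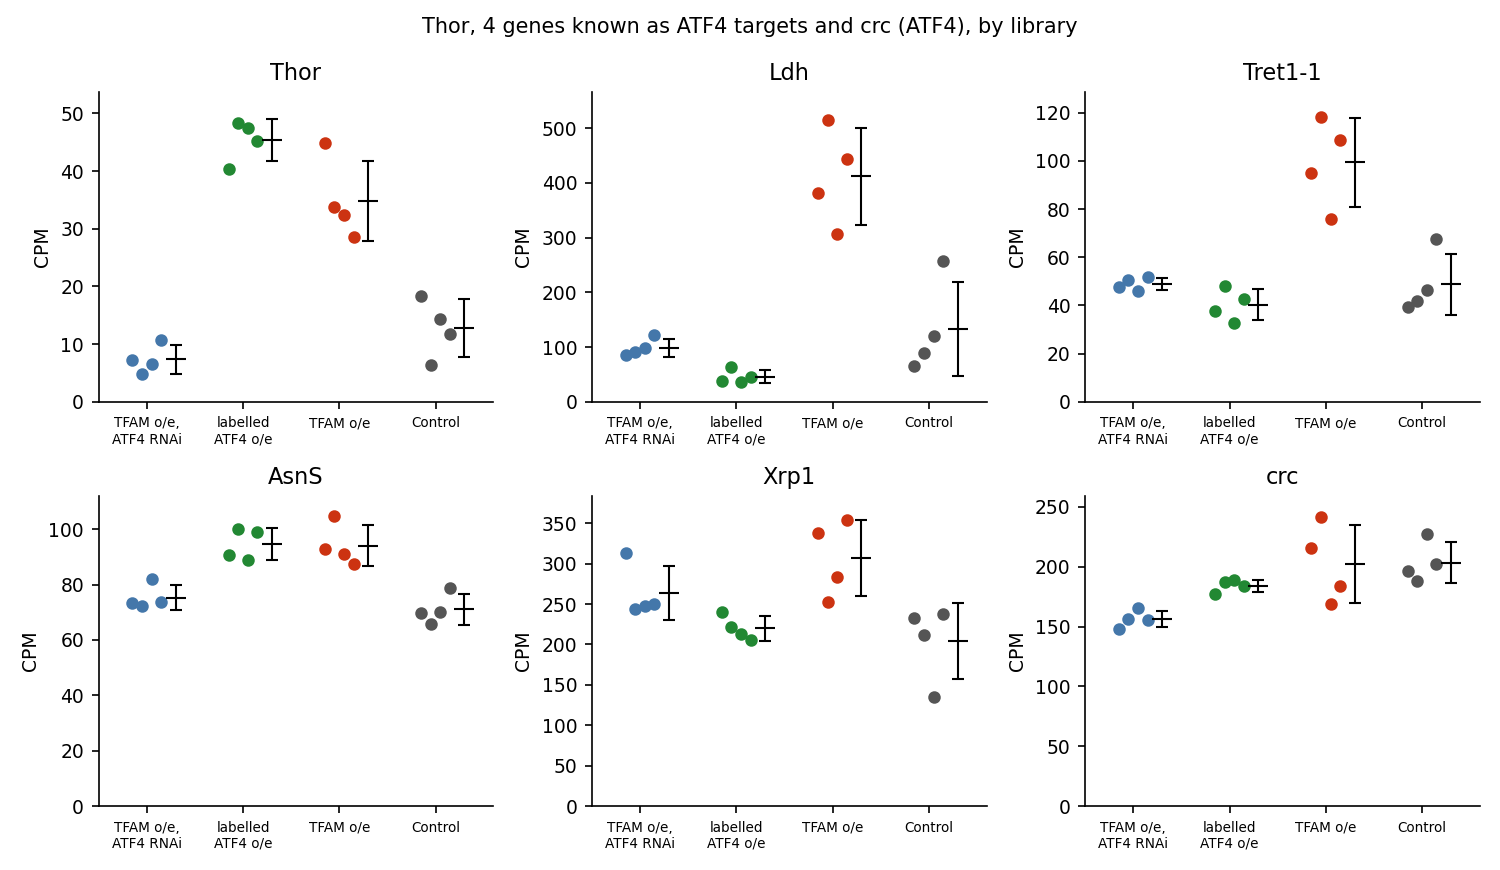
Thor, 4 genes listed as ATF4 targets and crc, the gene for ATF4, in CPM in each library by genotype, each panel with its own axis from 0. Bars are the mean and SD of 4 libraries. Thor and AsnS are high under the ATF4 overexpression label and in TFAM overexpression, Ldh and Tret1-1 are high in TFAM overexpression only, with Ldh at 37.1 to 63.5 CPM under the ATF4 overexpression label against 306.5 to 515.1 CPM in TFAM overexpression, and crc is not higher under that label (176.9 to 188.6 CPM) than in control (187.8 to 227.2 CPM).

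Immune and stress genes known to rise with Thor in other settings (5 of 7 tested, among them puc and GstD1) had no call by DESeq2. In edgeR only GstD1 was called, with the length slope as a covariate, under the ATF4 overexpression label against TFAM overexpression. An unadjusted p under 0.05 was found for 1 in the RNAi genotype against TFAM overexpression (5.81% of all genes). Under the ATF4 overexpression label against TFAM overexpression it was found for 2 (7.74% of all genes). The log2 fold changes of these immune and stress genes ranged from -0.48 to 0.21. The transcription factors known to act on Thor, foxo, crc, REPTOR and Xrp1, are given above save REPTOR, which stayed between -0.03 and 0.10 (lowest edgeR adjusted p = 0.863).

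Some tissue that adheres to dissected CNSs expresses Thor as well, fat body above all. The 6 fat body markers (Lsp1alpha, Lsp1beta, Lsp1gamma, Lsp2, Fbp1 and Fbp2) summed to 50.0 to 172.1 CPM in the RNAi genotype, 74.8 to 329.3 CPM under the ATF4 overexpression label, 59.9 to 113.2 CPM in TFAM overexpression and 130.6 to 509.5 CPM in control, and none was at 0. All 6 were lower in TFAM overexpression than in control at an unadjusted p under 0.05 (4.34% of all genes). Their median log2 fold change was -2.07, the direction opposite to that of Thor. Only Lsp1beta was called there by edgeR (0.0321% of all genes were called lower), at -1.96 (SE 0.27, edgeR adjusted p = 0.0222). DESeq2 called all 6 (and 120 of the 9355 tested genes). The edgeR call was lost with the replicate number as a block (adjusted p = 0.121) and without control replicate 2 or any 1 of the TFAM overexpression libraries (adjusted p from 0.0558 to 0.0991). In other comparisons the markers lay on the same side as Thor. In the RNAi genotype against control the log2 fold change of Thor was -0.83. There all 6 were lower at an unadjusted p under 0.05 (4.7% of all genes), with a median of -1.69. Of these markers edgeR called none and DESeq2 called 3 (and 128 of the 9421 tested genes). Under the ATF4 overexpression label against TFAM overexpression, where Thor was at 0.39, all 6 were higher with a median of 1.21. Of them 5 had an unadjusted p under 0.05 (7.74% of all genes). Here edgeR called none and DESeq2 called 2 (and 250 of the 9423 tested genes). Lsp1beta was called by edgeR with the replicate block (1.24, adjusted p = 0.00876) and the length slope (1.41, adjusted p = 0.0173). Under that label against control all 6 were lower, with a median of -0.88, while Thor was higher. Only 1 had an unadjusted p under 0.05 (8.91% of all genes), with no call by edgeR or DESeq2. In the RNAi genotype against TFAM overexpression, where Thor was lower, 5 of 6 were higher, none was called by edgeR or DESeq2, and none had an unadjusted p under 0.05.

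Other cell types were checked by their markers. Those of hemocytes summed to 75.7 to 187.0 CPM, of muscle to 483.9 to 676.5 CPM and of neuroblasts to 441.0 to 544.0 CPM over all libraries, while those of salivary gland ranged from 0.620 to 237.3 CPM and of ring gland from 1.74 to 134.1 CPM. Glial markers summed to 1474 to 1677 CPM in the RNAi genotype, 1252 to 1573 CPM under the ATF4 overexpression label, 1216 to 1680 CPM in TFAM overexpression and 1492 to 2286 CPM in control. The edgeR test called none of these in any comparison. An unadjusted p under 0.05 was found for all 6 salivary gland markers under the ATF4 overexpression label against TFAM overexpression (7.74% of all genes). DESeq2 called Eig71Ee of salivary gland in that comparison and the glial Gs2 in the RNAi genotype against TFAM overexpression. Of 7 glial markers, 4 had an unadjusted p under 0.05 under the ATF4 overexpression label against control (8.91% of all genes). Their median log2 fold change was -0.34, with 2 of 7 above 0. In TFAM overexpression against control 2 of 7 did (4.34% of all genes), with a median of -0.36 and 1 of 7 above 0. No marker list was at 0 in any genotype. Their part in the level of Thor was not tested.

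The genes next to Thor on 2L were read for comparison. Before it lie lncRNA:CR43928 at 786 bases, lncRNA:CR45372 at 2376 bases and Pgant4 at 3096 bases, and after it CG15414 at 1143 bases, tim at 14374 bases and lncRNA:CR45299 at 28986 bases. Both nearest genes were nearly silent, with at most 15 counts of lncRNA:CR43928 and 6 counts of CG15414 in any library. Pgant4, a glycosyltransferase gene, averaged 1.32 ± 0.264 CPM in the RNAi genotype, 1.96 ± 0.368 CPM under the ATF4 overexpression label, 1.84 ± 0.651 CPM in TFAM overexpression and 1.54 ± 0.474 CPM in control (SD, n = 4 each). The clock gene tim averaged 2.32 ± 0.593 CPM in the RNAi genotype, 3.37 ± 0.505 CPM under the ATF4 overexpression label, 2.34 ± 0.684 CPM in TFAM overexpression and 1.83 ± 0.396 CPM in control (SD, n = 4 each).

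Neither was called by edgeR in any of the 5 comparisons. The largest difference was that of tim under the ATF4 overexpression label against control, at 0.87 (SE 0.21, edgeR adjusted p = 0.168), which DESeq2 called (adjusted p = 0.0150). Since the exons of tim overlap those of lncRNA:CR46495 on the other strand and the strand setting of the counting is not stated, its reads may hold those of its partner. The other 2 lncRNA genes had at most 5 counts in any library.

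To find genes with a like pattern, each gene's log2 CPM was centred on its own control mean and its root mean square difference from Thor was taken over the 16 libraries, among 7596 genes with a mean of at least 5 CPM. The nearest was CG11700 at 0.711, followed by Rgk2, a small GTPase of the RGK family, at 0.794, and Tep4, a thioester-containing protein of immunity, at 0.841. A profile that never left its control mean would be at 1.33, the median gene was at 1.34, and 13 genes were within 1. Over genotype means in place of libraries the lowest distance was 0.456, where a profile that never left its control mean would be at 1.28.

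CG11700 had 2.56, 3.56, 4.24 and 2.36 CPM in the RNAi genotype, 10.6, 10.01, 10.6 and 12.4 CPM under the ATF4 overexpression label, 4.65, 6.47, 8.70 and 6.27 CPM in TFAM overexpression and 2.67, 3.14, 4.48 and 2.36 CPM in control. Like Thor it was highest under the ATF4 overexpression label, but its RNAi libraries were at the control level rather than below it. Rgk2 averaged 21.8 ± 0.971 CPM in the RNAi genotype, 57.5 ± 5.15 CPM under the ATF4 overexpression label, 28.8 ± 2.84 CPM in TFAM overexpression and 17.3 ± 1.95 CPM in control (SD, n = 4 each), so that it was much higher under the ATF4 overexpression label than in TFAM overexpression.

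The other genes of the nearest 8 were CG17684 at 0.907, ETHR, the receptor of ecdysis triggering hormone, at 0.921, Acf, a chromatin assembly subunit, at 0.924, ImpE2, an ecdysone-inducible gene, at 0.951 and Rdh1 at 0.955. Exons of CG17684, Acf and Rdh1 overlap those of another gene on the other strand. Relative to control, their means of log2 CPM were 0.66 to 1.40 higher under the ATF4 overexpression label and 0.31 to 0.77 higher in TFAM overexpression, where Thor was 1.92 and 1.52 higher. With ATF4 RNAi added they stood between -0.13 and 0.24, against -0.75 for Thor. ImpE2 was widely spread among replicates. It had 26.4 ± 17.9 CPM in the RNAi genotype, 49.6 ± 22.6 CPM under the ATF4 overexpression label, 47.9 ± 26.0 CPM in TFAM overexpression and 27.2 ± 14.2 CPM in control (SD, n = 4 each).

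**Figure D5:**
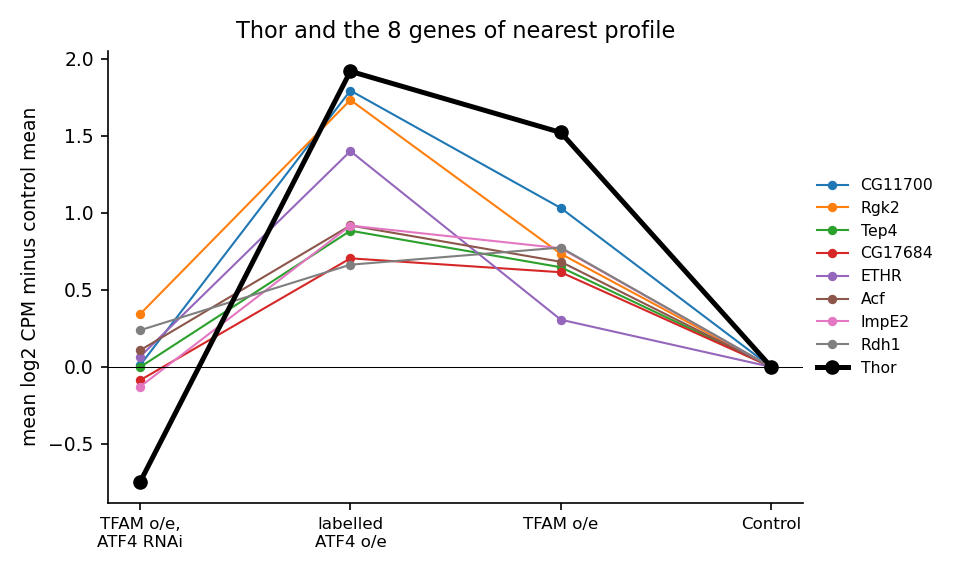
Mean log2 CPM of Thor and of the 8 genes with the nearest profile, each minus its own control mean, by genotype (lines join the means of 4 libraries of one gene and imply no order). Under the ATF4 overexpression label the values run from 0.66 for Rdh1 to 1.79 for CG11700 and 1.92 for Thor, and in the RNAi genotype Thor is at -0.75 while the 8 genes lie between -0.13 and 0.34.

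A plain count of the pattern gave a short list too. Of 9198 genes tested in all comparisons, 13, or 0.141%, were separated without overlap in the directions of Thor in all 3 comparisons that chose it, which share libraries. Ordered by the smallest of the 3 absolute log2 fold changes, Thor came first at 1.43, followed by CG1113 at 1.31, CG11700 at 1.03, MnM at 0.97 and CG14963 at 0.94. CG1113, MnM and CG14963 were scarce, with means of at most 2.79 CPM in any genotype, and AsnS and Acf were among the remaining genes. This is again the rule applied to all genes and not independent evidence on Thor.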

How the data were processed

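The deposited values are raw counts per gene, whole numbers with no normalization by the authors, who mapped the single-end reads of polyA TruSeq Stranded libraries to dm6 with Bowtie2 2.3.4.2 and counted them with featureCounts 1.6.3 at default settings in Galaxy. The gene annotation and the strand setting are not given in the sources used here. Bowtie2 does not split reads over introns, so that reads across the exon junction of Thor may be lost, alike in all libraries, which was not tested. Of the 17698 genes, 17560 had a symbol and an exon length in the Ensembl release 115 annotation.

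Counts were tested in R 4.3.3 with edgeR 4.0.16 (TMM, filterByExpr, quasi-likelihood test) fitted separately for each comparison to its 8 libraries. P values were adjusted by Benjamini-Hochberg over all genes in the fit, and called genes had an adjusted p under 0.05 and differed at least 1.2-fold. Log2 CPM used a prior count of 2. DESeq2 1.42.0 was an alternative. The others were its size factors, no filter on low counts, an FPKM of at least 1, all 16 libraries in 1 fit, the replicate number as a block, the slope of counts on exon length as a covariate, and leaving out each library.

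Thor and the lists were chosen with earlier results of these data known. The text names Thor, list members that were called, eIF4E1, mTor, foxo, crc, InR, Lk6, Ilp2, Ilp3, Ilp5, Ilp6, TFAM, the 3 nearest genes on either side and the 8 nearest profiles. Other names were added after their values were seen. nvd, a ring gland marker, was not matched.

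Each replicate was a separate pool of 20 CNSs, and no date or batch is given for any library. Replicates differed by more than sampling noise (chi-square per degree of freedom from 8.64 to 368). P values cover the spread between these pools.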

Additional observations from a re-analysis of the deposited data

Results flagged for a closer look

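Among 60 groups of 4 libraries of named genes, 3 held 1 library far from the other 3, where chance flags about 1 in 20 groups. Ilp2 had 278.9 CPM in TFAM overexpression replicate 2, against 131.7 to 153.1 CPM in the other 3 libraries of that genotype. Ilp5 had 107.9 CPM in the same library, against 57.96 to 61.83 CPM in the other 3. Ilp3 had 116.9 CPM in control replicate 3, against 46.48 to 54.75 CPM in the other control libraries. These 2 libraries have the lowest slopes of counts on exon length, -0.1859 and -0.4238, and the part of that in the peptide levels was not tested. Thor was not flagged in any genotype.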

How the results depend on the processing

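The log2 fold change of Thor kept its direction in all 5 comparisons under every alternative run. Leaving out each library gave 1.21 to 1.67 in TFAM overexpression against control, 1.6 to 2.06 in the ATF4 overexpression label against control, -2.48 to -2.10 in the RNAi genotype against TFAM overexpression, -1.06 to -0.59 in the RNAi genotype against control and 0.31 to 0.54 in the ATF4 overexpression label against TFAM overexpression. Without control replicate 3 and TFAM overexpression replicate 2, an alternative chosen after seeing the data, the values were 1.53, 1.89, -2.27, -0.75 and 0.36. Over other scalings its mean over the control mean was 0.573 to 0.577 in the RNAi genotype, 3.56 to 3.64 under the ATF4 overexpression label and 2.73 to 2.77 in TFAM overexpression. Of the 8 nearest genes, 8 were shared with DESeq2 size factors and 3 (CG11700, Rgk2 and ImpE2) with distances over genotype means.

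The counts of genes called across the genome, 28, 72, 52, 53 and 133 in the same order of comparisons, moved more. DESeq2 called 120, 210, 156, 128 and 250, and the length slope as a covariate gave 100, 172, 149, 178 and 320. All 16 libraries in 1 fit gave 92, 147 and 94 in the comparisons with control. Leaving out each library gave 17 to 26, 29 to 131, 27 to 71, 31 to 68 and 70 to 212. The highest counts of the ATF4 overexpression label came without control replicate 3 (131) and, against TFAM overexpression, without TFAM overexpression replicate 2 (212). Counts lower by more than 1.5 times came without TFAM overexpression replicate 1 or 3 (17 each) in the first comparison, without control replicate 2 (39) or 4 (37) or any library of the ATF4 overexpression label (29 to 30) in the second, without TFAM overexpression replicate 1 (34) or RNAi replicate 2, 3 or 4 (27 to 31) in the third, without control replicate 1 (31) or 2 (32) or RNAi replicate 1, 3 or 4 (31 to 34) in the fourth, and without replicate 3 (82) or 4 (70) of the ATF4 overexpression label in the last. Without both control replicate 3 and TFAM overexpression replicate 2, the counts of that label were 131 and 212. The cause was not tested.

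With the replicate number as a block, 9, 21, 21, 36 and 164 genes were called in the same order of comparisons, fewer than without it in the first 4 and more in the last, and Thor was at 1.503, 1.91, -2.29, -0.79 and 0.41. Same-numbered libraries deviated together (correlation above 0.1) for 2, 1, 1, 3 and 3 of 4 numbers. The correlations ran from -0.57 to 0.53, -0.34 to 0.56, -0.3 to 0.61, 0.08 to 0.58 and -0.41 to 0.58. The numbers were not taken to pair the libraries, though all correlations were above 0 in the RNAi genotype against control. Ldh and Tret1-1 stayed called under the block in both comparisons in which they were called.

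Limits are the 4 libraries per genotype, the wide spread of Thor in controls and RNAi libraries, crc counts that do not show the ATF4 transgene, and whole CNSs in place of neurons.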
